A study of Mus musculus with 18 samples.

Results

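The 9 genes described here belong to the Hedgehog signalling pathway: Shh, Ptch1, Smo, Gli1, Gli2, Gli3, Hhip, Boc and Gas1. They were taken by symbol, and all 9 were found among the 78317 mouse genes of the expression table. Of these, 8 could be tested, since they passed a filter on low counts, as did 16544 genes in all.

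The study cultured kidneys of wild-type CD1 mouse embryos at E14 and measured poly(A) RNA of sorted cells. Before culture the kidneys were exposed for 4 hours to AAV2, an adeno-associated virus, whose CAG promoter drove the red fluorescent protein mCherry followed by 2 mir30 shRNA cassettes, which make short RNAs that target a transcript. The Mylk-shRNA vector carried target sequences for Mylk (myosin light chain kinase), the Rock1/2-shRNA vector carried 1 each for the kinases Rock1 and Rock2, and the control scramble-shRNA vector carried shuffled forms of the Rock sequences. After 72 hours in collagen I and matrigel, explants of a condition were pooled and dissociated, and the cells in the top 25% and the bottom 50% of mCherry signal were sorted as the mCherry-positive and mCherry-negative fraction. Every culture, the scramble control included, received virus, both fractions came from the same pooled explants, and CAG is active in many cell types, so a fraction is a range of reporter signal and not a cell type. The 3 vectors and 2 fractions make 6 groups, each with 3 libraries from litters 1, 2 and 3, or 9 cultures sorted in 2.

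In the Hedgehog pathway a secreted ligand such as Shh binds the receptor Ptch1, helped by the co-receptors Boc, Cdon and Gas1, and this lifts the block that Ptch1 keeps on the membrane protein Smo. Active Smo acts at the primary cilium on the transcription factors Gli2, mainly an activator, and Gli3, mainly a repressor, and raises the transcription of Gli1, Ptch1 and Hhip. In the embryonic kidney Shh is known from the epithelium of the ureter and of the medullary collecting ducts, and the cells that respond are known to be mesenchymal cells of the surrounding stroma and smooth muscle layer.

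Gli proteins bind the sequence GACCACCCA, whose core is CCACCC. These promoters are shown because their genes, Gli2 and Hhip, were both higher in the positive fraction and have an entry in the RefSeq promoter table (GRCm38.p6), as do 6 of the 9 genes. Each run covers the 250 bases upstream of the annotated start, 5′ to 3′ on the strand of the gene, with every CCACCC core on either strand in capitals.
Gli2, chr1:119053620-119053869, minus strand: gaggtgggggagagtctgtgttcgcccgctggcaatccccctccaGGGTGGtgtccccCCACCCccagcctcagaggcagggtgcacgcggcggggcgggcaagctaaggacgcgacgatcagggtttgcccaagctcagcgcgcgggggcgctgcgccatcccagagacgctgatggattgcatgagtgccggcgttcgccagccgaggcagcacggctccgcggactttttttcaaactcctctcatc
Hhip, chr8:80058009-80058258, minus strand: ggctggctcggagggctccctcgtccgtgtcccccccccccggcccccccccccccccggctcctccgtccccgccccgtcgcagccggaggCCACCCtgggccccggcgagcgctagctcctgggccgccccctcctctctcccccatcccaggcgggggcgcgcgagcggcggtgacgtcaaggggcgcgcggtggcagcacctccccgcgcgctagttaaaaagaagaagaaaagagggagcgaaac
The Gli2 window held 2 cores and the Hhip window 1, the Smo and Gli3 windows held 1 each, and those of Ptch1 and Gas1 held 0. Of 32851 mouse promoter windows of the same length, 28.1% held the core on either strand. The longer GACCACCCA, which contains that core, was in 0 of the 6 windows and in 0.225% of all. These are matches of letters and not measured binding sites.

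The 18 libraries held 3121616 to 12170814 estimated counts each, with a median of 4197364 in the positive and 10915587 in the negative fraction. In the positive fraction, Mylk under Mylk-shRNA was at 87.9% of its level under scramble-shRNA (95% interval 71.3 to 108). Under Rock1/2-shRNA, Rock1 was at 94.1% (76.7 to 115.5) and Rock2 at 88.7% (70.8 to 111) of that level. All 3 intervals include 100.0%, so no knockdown of the targeted transcripts was detectable in these libraries. The fractions differed in markers of several cell types. Of 12 interstitial stroma markers 10 were higher and 1 lower in the positive fraction, with a summed level of 5732 to 8924 CPM (counts per 1e+06 counts of the library) against 3997 to 4673 CPM in the negative fraction. Of 10 smooth muscle markers 9 were higher and 1 lower (445.6 to 1130 against 219.3 to 334.2 CPM), and all 6 macrophage markers were higher (152.2 to 332.1 against 4.893 to 11.51 CPM). All 7 nephron progenitor markers were lower (450.7 to 609.1 against 480.6 to 1030 CPM), as were 5 of the 9 tested markers of ureteric trunk and collecting duct and 4 of 5 of the ureteric tip. None of the 7 urothelium markers passed the filter. In bulk libraries, fewer cells of a type and less RNA per cell cannot be told apart, and the part of these marker differences in the results on Hedgehog genes was not tested.

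Of the 8 tested Hedgehog genes, 4 were higher in the mCherry-positive fraction, averaged over the 3 vectors: the co-receptor Boc, the ligand-binding inhibitor Hhip, and the transcription factors Gli1 and Gli2. None was lower, and Ptch1, Smo, Gli3 and Gas1 did not pass the test. The test was edgeR's quasi-likelihood test with Benjamini-Hochberg adjustment over all 16544 genes, and a gene was called at an adjusted p under 0.05. By the same rule 33.6% of all genes tested were called, 17.6% as higher and 16% as lower, so a difference between the fractions was common. The median log2 fold change was 0.28 over the 8 Hedgehog genes and -0.03 over all genes tested.

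**Figure D1:**
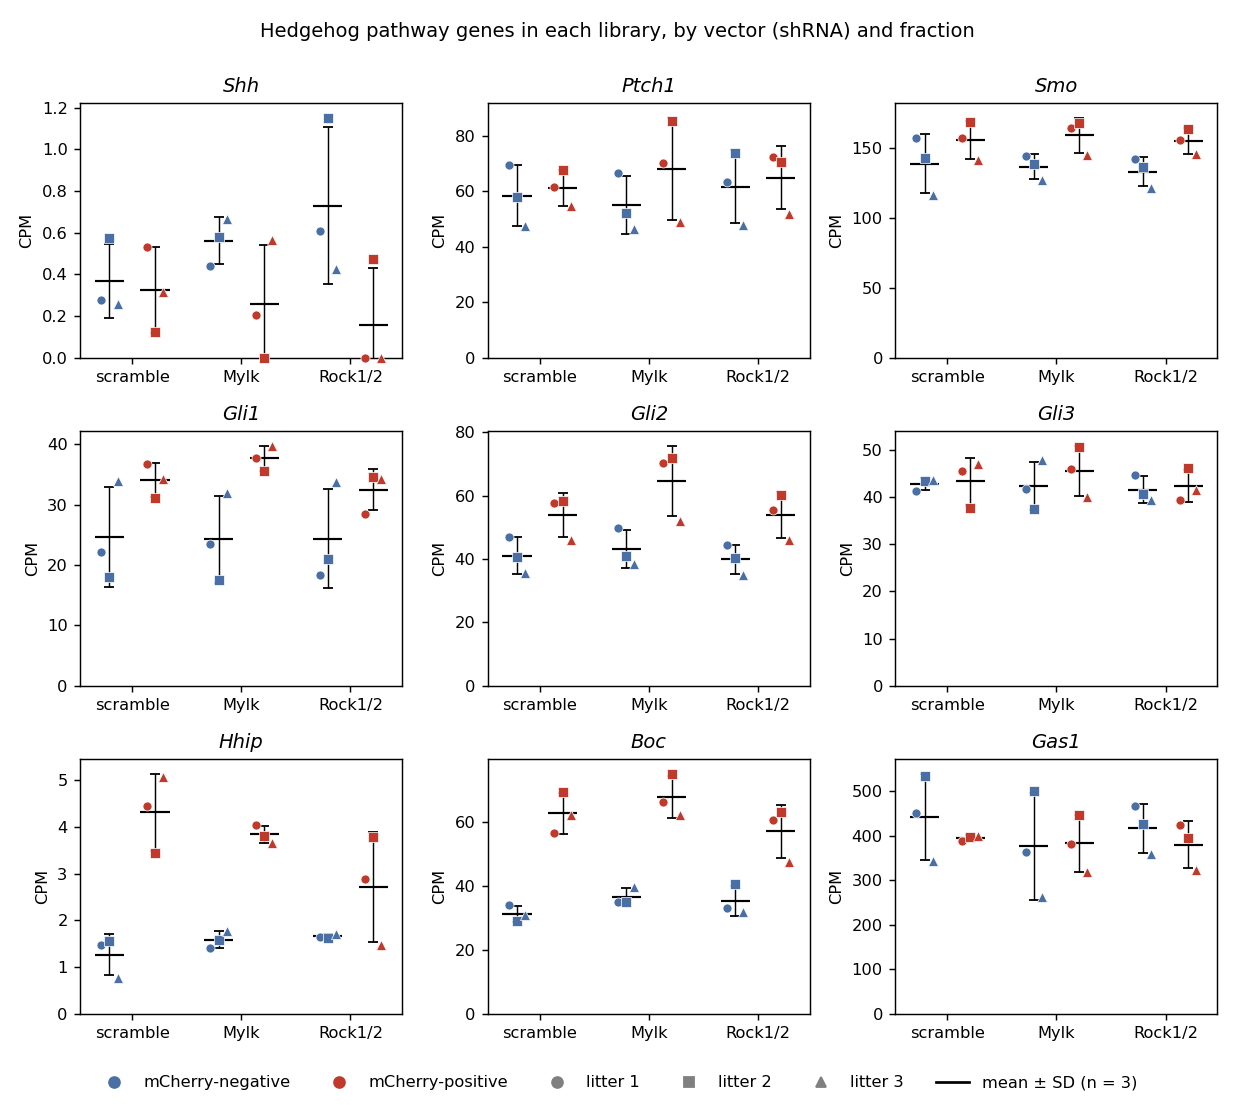
Level of each Hedgehog gene in CPM (y axis, from 0) in each of the 18 libraries, by vector; blue is the mCherry-negative and red the mCherry-positive fraction, the marker shape gives the litter, and bars give mean ± SD (n = 3). Boc is the gene whose 9 positive libraries (47.5 to 75.0 CPM) all lie above its 9 negative libraries (28.8 to 40.7 CPM), and the 3 negative Gli1 libraries of litter 3 (31.9 to 33.9 CPM) lie among the positive ones.

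**Figure D2:**
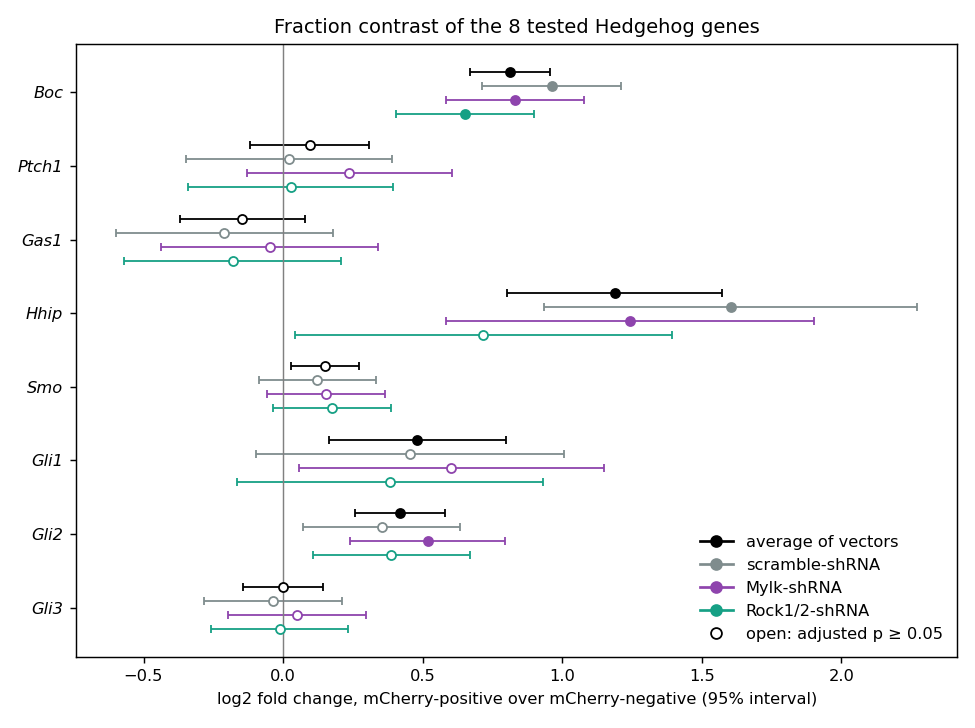
Log2 fold change of the positive over the negative fraction (x axis) for the 8 tested Hedgehog genes, as the average of vectors (black) and within each vector (colours), with 95% intervals; filled points passed an adjusted p of 0.05. The average is filled for Boc, Hhip, Gli1 and Gli2, and Boc is filled within every vector.

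The ligand Shh (ENSMUSG00000002633) was close to absent. It did not pass the filter, and its 18 libraries held between 0 and 10 counts each. In the positive fraction 3 of 9 libraries held no count and the highest level was 0.564 CPM. Every negative library held at least 1 count, at 0.257 to 1.15 CPM. Summed over libraries, there were 13 counts of 49992770 in the positive fraction, or 0.260 CPM (exact 95% Poisson interval 0.139 to 0.445, counting error only). In the negative fraction there were 46 of 82061122, or 0.561 CPM (0.410 to 0.748). The level was higher in the negative fraction in 7 of 9 cultures, with means of 0.554 ± 0.267 and 0.246 ± 0.234 CPM (SD, n = 9), and the exact two-sided sign-flip permutation test over the 9 cultures gave p = 0.03125 (the smallest it can give is 0.003906). The ranges of the fractions overlapped, and at 0 to 10 counts a library the size of this difference is poorly fixed. That p is not adjusted, and it takes the 9 cultures as independent although they come from 3 litters. By vector the negative and positive means were 0.369 and 0.324 CPM with scramble-shRNA, 0.562 and 0.257 CPM with Mylk-shRNA, and 0.730 and 0.158 CPM with Rock1/2-shRNA. Of the 9 tested markers of ureteric trunk and collecting duct, 5 were lower in the positive fraction and 4 were not called. The summed level of that list overlapped between the fractions (59.76 to 102.4 CPM in the positive, 88.62 to 157.3 CPM in the negative). The part of these markers in the Shh difference was not tested. The other ligands, Ihh and Dhh, did not pass the filter and reached at most 1.27 and 0.951 CPM.

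Around the ligand, the genes for its release moved in different directions. Scube2, a secreted protein that helps to free the lipid-bearing ligand from the cell surface, was higher in the positive fraction in all 9 cultures, at 2.05 ± 0.977 against 0.774 ± 0.409 CPM (log2 fold change 1.38 ± 0.35 SE, edgeR adjusted p = 0.00496). Its relative Scube1 was higher in 7 of 9 cultures (18.2 ± 3.39 against 12.98 ± 3.87 CPM, 0.47 ± 0.15, edgeR adjusted p = 0.0252). Scube3, another secreted member of that family, went the other way in all 9 cultures, at 19.03 ± 3.09 against 45.5 ± 14.3 CPM (-1.32 ± 0.17, edgeR adjusted p = 1.34e-05). Of the 8 genes of ligand production and release, 5 could be tested, of which 2 were higher, 1 was lower and 2 were not called, beside 33.6% of all genes called.

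Boc (ENSMUSG00000022687), a cell-surface co-receptor that binds the ligand, showed the clearest separation of the 9 genes. In the scramble-shRNA cultures of litters 1, 2 and 3 it was at 56.5, 69.2 and 62.2 CPM in the positive and at 34.0, 28.8 and 30.8 CPM in the negative fraction. With Mylk-shRNA it was at 66.2, 75.0 and 62.0 CPM against 35.0, 35.0 and 39.6 CPM. With Rock1/2-shRNA it was at 60.5, 62.9 and 47.5 CPM against 33.1, 40.7 and 31.9 CPM. Every positive library was thus above every negative one, a separation that 8.72% of all genes tested also showed in one direction or the other. The log2 fold change was 0.81 ± 0.07 SE (95% interval 0.67 to 0.96, edgeR adjusted p = 3.27e-08), that is, from 34.3 ± 3.85 to 62.5 ± 7.77 CPM (SD, n = 9). It held within each vector, with 0.96 for scramble-shRNA (edgeR adjusted p = 2.48e-05), 0.83 for Mylk-shRNA (8.71e-05) and 0.65 for Rock1/2-shRNA (0.00100). In the order of the 6 group means, Mylk-shRNA positive cells stood first (67.8 CPM), then scramble-shRNA (62.6 CPM) and Rock1/2-shRNA positive cells (57.0 CPM), then the negative cells of Mylk-shRNA (36.5 CPM), Rock1/2-shRNA (35.2 CPM) and scramble-shRNA (31.2 CPM). Neighbours within a fraction did not pass a test, so the gap that did is the one between the fractions.

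Cdon, the co-receptor related to Boc, had a smaller difference that did not pass, at 19.1 ± 4.496 against 15.1 ± 2.84 CPM (log2 fold change 0.28 ± 0.12 SE, edgeR adjusted p = 0.0865). Gas1 (ENSMUSG00000052957), a co-receptor anchored to the membrane by a lipid, did not share the rise of Boc either. It ranged from 319.8 to 448 CPM in the positive fraction (median 395) and from 263 to 535 CPM in the negative one (median 427), and was higher in the positive fraction in 3 of 9 cultures. The log2 fold change was -0.15 ± 0.11 (-0.37 to 0.08, edgeR adjusted p = 0.319), and the 3 positive scramble-shRNA libraries, at 389, 398 and 400.03 CPM, lay inside the span of their negative partners, at 452, 535 and 343 CPM.

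Ptch1 (ENSMUSG00000021466), at once the receptor and a target of the pathway, overlapped between the fractions. Its positive libraries were at 61.4, 67.6 and 54.7 CPM with scramble-shRNA, 70.2, 85.5 and 48.9 CPM with Mylk-shRNA, and 72.4, 70.5 and 51.8 CPM with Rock1/2-shRNA. The negative ones were at 69.6, 58.0 and 47.6 CPM, 66.5, 52.2 and 46.5 CPM, and 63.3, 73.9 and 47.9 CPM. Litter 3, the last of each triplet, was the lowest in all 6 groups, and the litters differed more than the fractions. The fraction difference was 0.10 ± 0.10 on the log2 scale (-0.12 to 0.31, edgeR adjusted p = 0.509), with the positive fraction higher in 7 of 9 cultures.

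Hhip (ENSMUSG00000064325), which binds Hedgehog ligands away from Ptch1 and is itself a target, had the highest fold change of the 8 tested genes at a low level, with 3 to 39 counts a library. In the scramble-shRNA cultures of litters 1 to 3 it was at 4.44, 3.44 and 5.07 CPM in the positive and 1.47, 1.56 and 0.771 CPM in the negative fraction. With Mylk-shRNA it was at 4.04, 3.81 and 3.66 CPM against 1.41, 1.58 and 1.77 CPM. With Rock1/2-shRNA it was at 2.88, 3.79 and 1.47 CPM against 1.65, 1.61 and 1.71 CPM. The groups did not overlap with scramble-shRNA or Mylk-shRNA, and with Rock1/2-shRNA the positive library of litter 3 fell below all 3 negative ones. The average log2 fold change was 1.19 ± 0.18 SE (0.80 to 1.57, edgeR adjusted p = 5.27e-05). Within vectors it was 1.60 for scramble-shRNA (edgeR adjusted p = 0.00205), 1.24 for Mylk-shRNA (0.0116) and 0.72 for Rock1/2-shRNA (0.188). The Mylk-shRNA call was lost without the litter 1 library of either fraction (adjusted p = 0.0605 without the positive and 0.0635 without the negative one). The Rock1/2-shRNA value was 0.33 without the positive library of litter 2 and 0.98 without that of litter 3, and did not pass either way (edgeR adjusted p = 0.804 and 0.0624). The smaller value with Rock1/2-shRNA was not shown to differ from that with scramble-shRNA, since the difference of the contrasts was -0.89 ± 0.45 (-1.84 to 0.06, edgeR adjusted p = 0.9999).

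Smo (ENSMUSG00000001761), the membrane protein that carries the signal inwards, showed a small difference that depended on the model. It was at 141 to 169 CPM (median 157) in the positive and 116 to 157 CPM (median 138) in the negative fraction, and higher in the positive fraction in 8 of 9 cultures. The exception was litter 1 with scramble-shRNA, at 157 CPM in both fractions to 3 digits. The log2 fold change was 0.15 ± 0.06 SE (0.03 to 0.27) with an edgeR adjusted p of 0.0537. With litter as a replicate block the adjusted p was 0.00851 and with DESeq2 it was 0.0281. It also passed without the positive scramble-shRNA library of litter 3 (adjusted p = 0.0473) or the negative one of litter 1 (0.0335), so Smo lay at the threshold.

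Of 25 genes of signal transduction, Smo and the Gli genes included, 7 were higher, 2 were lower and 16 were not called, beside 33.6% of all genes called in either direction. Evc, part of a complex at the base of the cilium that works with Smo, was at 19.2 ± 1.64 CPM against 12.6 ± 1.81 CPM (log2 fold change 0.56 ± 0.09 SE, edgeR adjusted p = 6.57e-05) and higher in the positive fraction in all 9 cultures. Its partner Evc2 was higher by 0.24 ± 0.07 (edgeR adjusted p = 0.0168). The next 3 genes were also higher. Mgrn1, a ubiquitin ligase subunit that lowers Smo at the surface, differed by 0.30 ± 0.06 (edgeR adjusted p = 0.00103), and Gpr161, a ciliary receptor that raises cyclic AMP, by 0.31 ± 0.08 (edgeR adjusted p = 0.00841). Prkaca, a catalytic subunit of protein kinase A, which primes Gli proteins for processing, differed by 0.20 ± 0.07 (edgeR adjusted p = 0.0459). The 2 lower genes were the kinases Csnk1a1, at -0.15 ± 0.05 (edgeR adjusted p = 0.0316), and Dyrk2, at -0.17 ± 0.06 (edgeR adjusted p = 0.0422), both known to phosphorylate Gli proteins. Apart from Evc, each of these differences was below 0.35 on the log2 scale.

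Gli2 (ENSMUSG00000048402), the main activator, was higher in the positive fraction in all 9 cultures. Its positive libraries were at 57.7, 58.3 and 46.0 CPM with scramble-shRNA, 70.2, 71.9 and 51.9 CPM with Mylk-shRNA, and 55.4, 60.1 and 46.0 CPM with Rock1/2-shRNA. The negative ones were at 47.0, 40.5 and 35.5 CPM, 49.9, 41.0 and 38.5 CPM, and 44.3, 40.3 and 35.1 CPM. As with Ptch1, litter 3 was the lowest of its group in all 6 groups, but each of its positive libraries was above its own negative partner. The log2 fold change was 0.42 ± 0.08 SE (0.26 to 0.58, edgeR adjusted p = 0.000316). Within vectors it was 0.52 for Mylk-shRNA (edgeR adjusted p = 0.0127), 0.35 for scramble-shRNA (0.0986) and 0.39 for Rock1/2-shRNA (0.0733). With litter as a replicate block the last 2 passed as well, at adjusted p = 0.00501 and 0.00255. The Mylk-shRNA call was lost without the positive library of litter 1 (adjusted p = 0.0863) or litter 2 (0.0573), or the negative library of litter 2 (0.0558).

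Gli3 (ENSMUSG00000021318), whose cut form is the main repressor, was level across the fractions. It ranged from 37.7 to 50.7 CPM (median 45.4) in the positive and from 37.6 to 47.8 CPM (median 41.7) in the negative fraction, and was higher in the positive one in 6 of 9 cultures. The log2 fold change was -0.00017 ± 0.068 SE with a 95% interval of -0.14 to 0.14 (edgeR adjusted p = 0.999). Within vectors it stayed between -0.04 and 0.05.

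Gli1 (ENSMUSG00000025407), an activator whose transcript is a standard readout of Hedgehog signalling, was higher by CPM in the positive fraction in all 9 cultures. That held for 15.2% of all genes tested. In the scramble-shRNA cultures of litters 1, 2 and 3 it was at 36.7, 31.1 and 34.2 CPM in the positive and 22.1, 17.99 and 33.9 CPM in the negative fraction. With Mylk-shRNA it was at 37.7, 35.5 and 39.7 CPM against 23.4, 17.5 and 31.9 CPM. With Rock1/2-shRNA it was at 28.5, 34.5 and 34.3 CPM against 18.4, 20.98 and 33.8 CPM. The positive libraries of the 3 litters spanned 28.5 to 39.7 CPM. The negative libraries of litter 3 lay inside that range, while those of litters 1 and 2 lay below it. Within each litter the 3 positive libraries were above the 3 negative ones, by a narrow gap in litter 3 (34.2 against 33.9 CPM at the nearest), where 40.3%, 44.4% and 32.1% of all genes tested did not overlap in litters 1, 2 and 3. These counts and overlaps use CPM on the library sum, whereas the fold changes also use TMM scaling. The litter 3 gap and the count of 9 cultures depend on that choice. In litter 3 the scramble-shRNA pair had TMM factors of 1.006 (positive) and 0.9393 (negative), and the Rock1/2-shRNA pair 0.9841 and 0.9499. With these factors the negative library of each of these pairs becomes the higher one. The log2 fold change was 0.48 ± 0.15 SE (0.16 to 0.80, edgeR adjusted p = 0.0197), and 0.71 without the 6 libraries of litter 3 (edgeR adjusted p = 4.49e-05). Within single vectors it did not pass, at 0.45 for scramble-shRNA (edgeR adjusted p = 0.311), 0.60 for Mylk-shRNA (0.149) and 0.38 for Rock1/2-shRNA (0.441). Without the negative library of litter 3 these values were 0.73, 0.82 and 0.71, of which the one with Mylk-shRNA passed (edgeR adjusted p = 0.0561, 0.0459 and 0.0779). With scramble-shRNA the value was 0.25 without the negative library of litter 2, and with Rock1/2-shRNA it was 0.21 without that of litter 1. With litter as a replicate block it passed with scramble-shRNA (adjusted p = 0.0303) and Mylk-shRNA (0.00703).

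Gli1 therefore had its own pattern over litters, and the litters were compared in a fit with a mean for each fraction of each litter, a fit chosen after the data had been seen. Its replicates are the 3 cultures of a litter, so its p-values measure the spread between cultures and not between litters. Within litter 1 the fraction contrast of Gli1 was 0.69 ± 0.11 (edgeR adjusted p = 3.44e-05) and within litter 2 it was 0.77 ± 0.11 (6.39e-06). Within litter 3 it was 0.06 ± 0.12 (-0.19 to 0.31, edgeR adjusted p = 0.802). The contrast of litter 3 minus that of litters 1 and 2 was -0.67 ± 0.15 (-0.97 to -0.37, edgeR adjusted p = 0.0402), a difference called for 0.363% of all genes tested and for none of the other 7 Hedgehog genes. It kept its sign and a size of -0.74 to -0.60 when each of the 18 libraries was left out in turn, but in 13 of the 18 fits it no longer passed, with adjusted p up to 0.168. The negative libraries carried the change, with litter means of 21.3 ± 2.61, 18.8 ± 1.88 and 33.2 ± 1.15 CPM (SD over 3 vectors), against 34.3 ± 5.04, 33.7 ± 2.34 and 36.1 ± 3.17 CPM in the positive fraction.

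The level of several Hedgehog genes also differed between litters over both fractions together. In litter 3 against litters 1 and 2, Gli1 was higher by 0.47 ± 0.07 on the log2 scale (edgeR adjusted p = 2.36e-05). That value averages both fractions, and the litter means of Gli1 given above differed mainly in the negative one. As above, the p-values of this fit measure the spread between cultures and not between litters. Another 4 were lower: Ptch1 by -0.38 ± 0.07 (9.04e-05), Gas1 by -0.31 ± 0.07 (0.00139), Gli2 by -0.26 ± 0.05 (0.000625) and Smo by -0.14 ± 0.05 (0.0165). Such differences were common, with 39.4% of all genes called, so 5 of 8 is read against that share. Between litters 1 and 2, by contrast, 4.32% of all genes and 0 of the 8 Hedgehog genes were called (edgeR, 0 of 8 also at an unadjusted p under 0.05). Litter 3 had a lower median depth, 3987193 counts against 9169647 in the other 2 litters, though the ranges overlapped (3153476 to 7017735 against 3121616 to 12170814). It mostly held more mitochondrial counts, 3.95 to 9.16% against 2.01 to 4.02%. The part of these in the litter differences was not tested.

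The fractions within a litter were tested in the same fit. In litter 1, Boc, Hhip, Gli1 and Gli2 were called, against 27.7% of all genes. In litter 2 the same 4 genes were called and Gas1 was lower in the positive fraction, at -0.32 ± 0.11 (edgeR adjusted p = 0.0303), against 33.5% of all genes. In litter 3 Boc (0.69 ± 0.12, edgeR adjusted p = 0.000165) and Gli2 (0.34 ± 0.09, 0.0110) were called, against 17.2% of all genes, and Hhip was at 1.07 ± 0.40 (0.0669). Boc and Gli2 were thus called in each of the 3 litters, with the cultures of that litter as replicates.

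**Figure D3:**
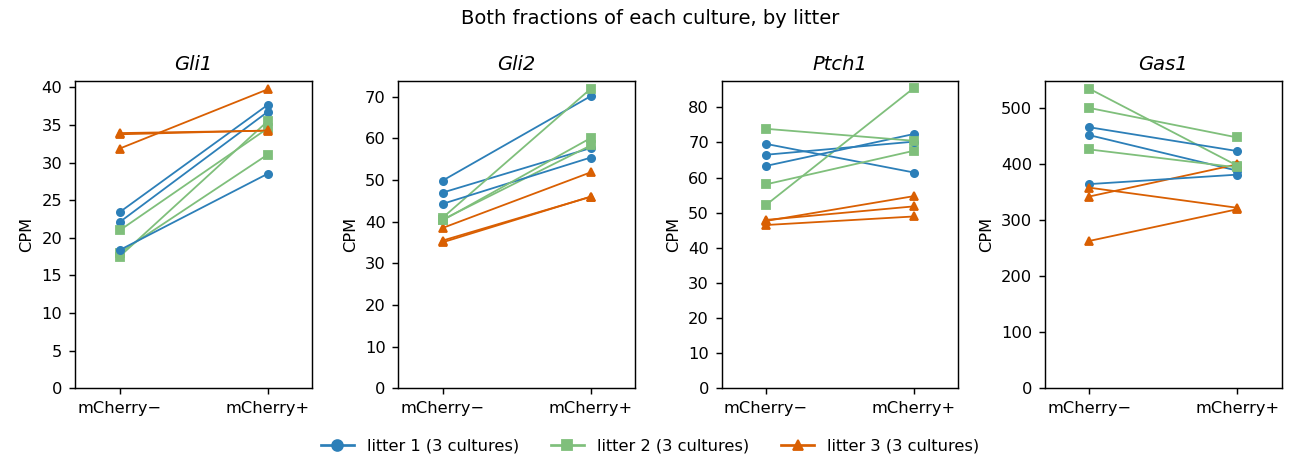
Level of Gli1, Gli2, Ptch1 and Gas1 in CPM (y axis, from 0) in the mCherry-negative and mCherry-positive fraction (x axis), with a line for each of the 9 cultures coloured by litter. The Gli1 lines of litters 1 and 2 start at 17.5 to 23.4 CPM and rise, those of litter 3 start at 31.9 to 33.9 CPM, and for Gli2 and Ptch1 the litter 3 lines lie lowest at both ends.

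Genes listed as Hedgehog targets in other tissues moved in both directions. Of 17 tested, Gli1, Hhip and Ptch1 included, 8 were higher in the positive fraction, 4 were lower and 5 were not called, beside 17.6% higher and 16% lower of all genes tested. Foxf1, a transcription factor of visceral mesenchyme, was at 4.98 ± 2.16 CPM against 1.56 ± 0.395 CPM (log2 fold change 1.59 ± 0.24 SE, edgeR adjusted p = 4.45e-05). Sfrp1, a secreted Wnt antagonist, was at 208 ± 22.5 CPM against 109 ± 11.5 CPM (0.88 ± 0.07, edgeR adjusted p = 2.55e-08). Rab34, a GTPase needed for cilia, was higher by 0.48 ± 0.07 (edgeR adjusted p = 1.22e-05), and the forkhead factors Foxl1 and Foxc2 by 0.41 ± 0.12 and 0.33 ± 0.12 (adjusted p = 0.0104 and 0.0352). Each of these 5 was higher in the positive fraction in 8 or 9 of the 9 cultures. The 4 lower genes were the cell cycle regulator Ccnd1, the transcription factors Mycn and Tbx3, and the growth factor Bmp4. Ccnd1 was at 195 ± 21.1 CPM against 424 ± 100 CPM (-1.17 ± 0.11, edgeR adjusted p = 2.25e-07), and Bmp4 at 20.8 ± 5.18 against 35.1 ± 3.46 CPM (-0.81 ± 0.10, 6.64e-06). Mycn differed by -0.74 ± 0.10 (edgeR adjusted p = 1.26e-05) and Tbx3 by -0.63 ± 0.11 (0.000162).

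Over all 46 pathway genes other than the 9, 43 could be tested, of which 13 were higher in the positive fraction, 7 were lower and 23 were not called. The shares of all genes tested were 17.6% higher and 16% lower. Their median log2 fold change was 0.05, against 0.28 for the 8 tested genes above and -0.03 for all genes tested.

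**Figure D4:**
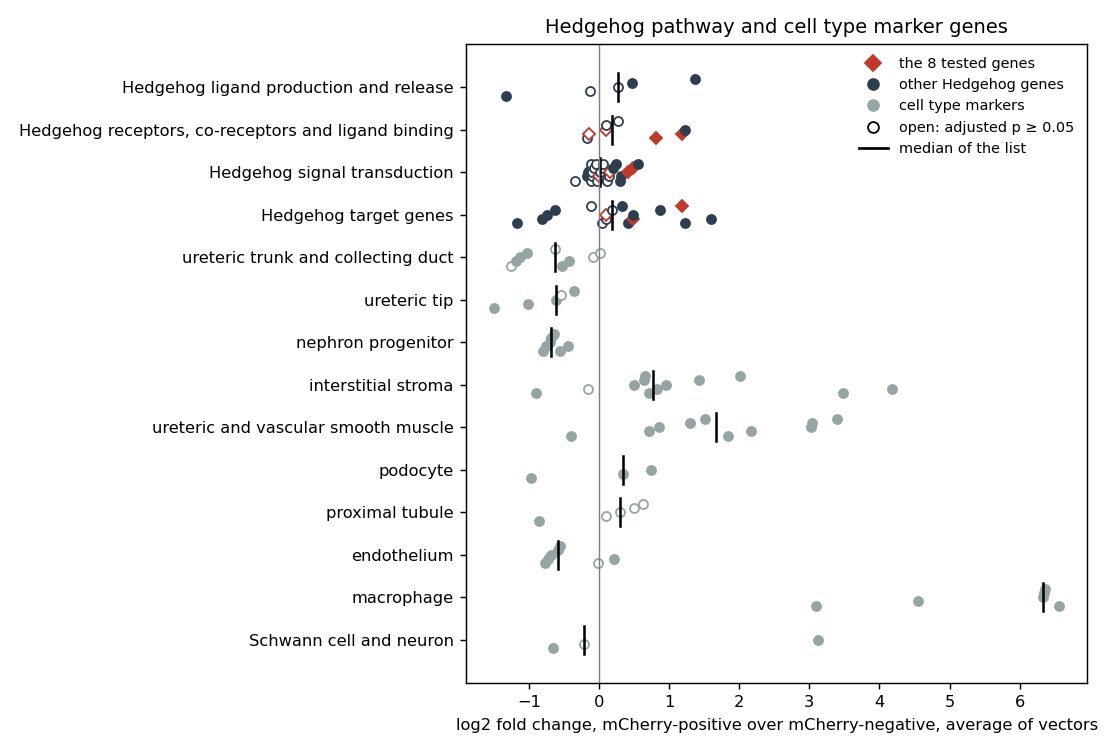
Log2 fold change of the positive over the negative fraction, average of vectors (x axis), of each tested gene in the Hedgehog lists (red diamonds are the 8 tested genes, dark circles other pathway genes) and in lists of cell type markers (grey circles); filled symbols passed an adjusted p of 0.05 and the bar is the median of the list. Hedgehog target genes spread from -1.17 to 1.59, while macrophage (median 6.34), smooth muscle (1.67) and stroma (0.77) markers lie mostly to the right.

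Within single vectors the fraction contrast called 2 of the 8 Hedgehog genes with scramble-shRNA (Boc and Hhip), 3 with Mylk-shRNA (Boc, Hhip and Gli2) and 1 with Rock1/2-shRNA (Boc), all higher in the positive fraction. Over all genes 12.3%, 13.2% and 11.2% were called in either direction, and 7.43%, 8.07% and 6.94% as higher, with 4.85%, 5.14% and 4.3% as lower. Each of these contrasts rests on 3 libraries against 3. The positive and negative libraries did not overlap for Boc and Hhip with scramble-shRNA, for Boc, Hhip, Gli1, Gli2 and Smo with Mylk-shRNA, and for Boc, Gli2 and Smo with Rock1/2-shRNA. Among all genes tested 26.2%, 25.4% and 26.8% did not overlap in either direction, so 2, 5 and 3 of 8 are read against those shares. With litter as a replicate block, 4 of 8 were called with scramble-shRNA, 4 with Mylk-shRNA and 2 with Rock1/2-shRNA. The block also raised the calls over all 16544 genes, to 3848, 4019 and 3369, from 2032, 2186 and 1859. The fraction contrast itself was not shown to differ between vectors. The difference from scramble-shRNA was called for 0 of 8 genes and 0% of all genes, for Mylk-shRNA and for Rock1/2-shRNA. At an unadjusted p under 0.05, edgeR gave 217 and 145 of all 16544 genes and 0 of the 8, and DESeq2 also called 0 genes. For Boc the Rock1/2-shRNA contrast was lower than that of scramble-shRNA by -0.31 ± 0.17 (-0.66 to 0.04, edgeR adjusted p = 0.9999).

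The comparison of vectors within a fraction asked whether targeting Mylk or the Rock genes moved the Hedgehog genes. In none of the 6 comparisons was any of the 8 genes called by edgeR, nor any of the 51 tested pathway genes, and 0% of all genes were called. At an unadjusted p under 0.05, edgeR gave 0 of the 8 genes in each comparison and 121 to 285 of all genes, and DESeq2 called 0 genes.

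The intervals set what this fit can say. It has no litter block, so they include the spread between litters that the vectors share. In the positive fraction, Gli2 with Mylk-shRNA differed from scramble-shRNA by 0.24 ± 0.13 on the log2 scale (-0.04 to 0.52, edgeR adjusted p = 0.9999), the lowest unadjusted p of the 8 in that comparison. Hhip with Rock1/2-shRNA differed by -0.59 ± 0.31 (-1.24 to 0.06, edgeR adjusted p = 1). Gli1, the readout gene, differed by 0.13 ± 0.26 with Mylk-shRNA (-0.41 to 0.68) and by -0.06 ± 0.26 with Rock1/2-shRNA (-0.61 to 0.50). For Smo the intervals were -0.20 to 0.22 with Mylk-shRNA and -0.22 to 0.20 with Rock1/2-shRNA, and for Gli3 they were -0.19 to 0.31 and -0.27 to 0.24. Changes of a size inside these intervals were not excluded by this fit.

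In the negative fraction, Boc with Mylk-shRNA was at 35.0, 35.0 and 39.6 CPM against 34.0, 28.8 and 30.8 CPM with scramble-shRNA. The difference of 0.22 ± 0.12 on the log2 scale (-0.03 to 0.47) had an edgeR adjusted p of 1. The other differences of the 8 genes from scramble-shRNA in that fraction lay between -0.23 and 0.30. Between Mylk-shRNA and Rock1/2-shRNA they lay between -0.01 and 0.44 in the positive fraction and between -0.15 and 0.12 in the negative one. The comparisons of a fraction share libraries, so these values are not independent of each other.

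**Figure D5:**
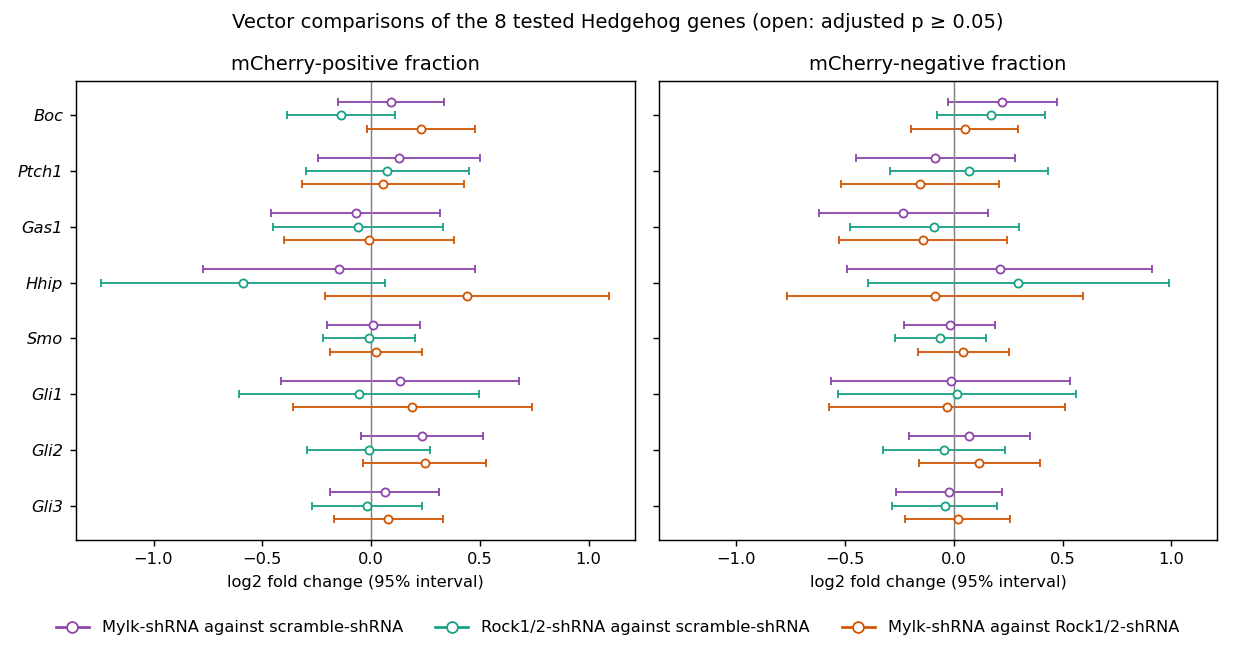
Log2 fold change between vectors (x axis) with 95% intervals for the 8 tested Hedgehog genes in the mCherry-positive (left) and mCherry-negative (right) fraction; colours give the pair of vectors. All points are open, since none passed an adjusted p of 0.05, and the widest intervals are those of Hhip, the gene with the fewest counts.

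The genes whose pattern over the 18 libraries was most like each Hedgehog gene were found by the root mean square difference of log2 values centred on each gene's own mean. Closest to Boc were Ctsz, Cavin1 and Crat (0.104 for Ctsz, where Boc itself varied by 0.456). Closest to Gli2 were Calm3, Arhgef17 and Kirrel1 (0.0759 for Calm3, 0.299 for Gli2 itself). Gli1 had Slc66a1, Mvp and Arhgef40 (0.157 for Slc66a1, 0.384 for Gli1 itself), and Hhip had C1qtnf1, Tbc1d2b and Pcolce (0.275 for C1qtnf1, 0.604 for Hhip itself). For Gli3 the closest genes, N4bp2l2, Sfpq and Heatr6, were hardly nearer (0.0898 for N4bp2l2) than Gli3 was to its own mean (0.118). No other Hedgehog gene was among the 3 nearest of any of the 8. Hhip and Shh could not be, since their mean level lay below the 5 CPM required of a listed gene. All libraries share their litters and sorts, so this is a description of likeness only.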

How the data were processed

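The 18 libraries came from sorted cells of cultured CD1 embryonic kidneys, with mRNA capture and tagmentation, per the labels' protocols. The authors deposited estimated counts and CPM for 78409 genes and spike-ins. Per the submitters' processing notes, the upstream tools included fastp 0.24.0, STAR 2.7.11, featureCounts of Subread 2.1.1 and the build GRCm39. The sources used here do not give their settings, the annotation, the use of strand or the sharing of multiply mapped reads, so reads of overlapping genes may be shared. Of the nonzero deposited counts 22.1 to 27.4% were fractions. The deposited CPM values equalled the authors' counts divided by the library sum and multiplied by 1e+06, to within 4.4e-11.

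The 92 spike-ins were left out and counts were rounded. edgeR 4.0.16 (R 4.3.3) with TMM, a filter on low counts (filterByExpr, minimum 10) and 1 mean for each of the 6 groups gave 12 comparisons with the robust quasi-likelihood test. Benjamini-Hochberg adjustment ran over the 16544 genes tested, with a threshold of 0.05, and intervals are 95%. The common biological coefficient of variation was 0.165. Similar patterns used log2(CPM + 0.5) and genes of mean 5 CPM or more. CPM values use the library sum without TMM, and so do the counts of cultures and the overlaps. CPM values of different genes are not adjusted for length.

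The named genes were the 9 members, called genes of the fixed pathway lists and the 3 nearest patterns. The values of a single called gene of those lists are not reported here. The members and lists were chosen with earlier results of these data known. Replicate numbers mark litters per the labels, so litter pairs the libraries, and the deviations of same-litter libraries correlated at 0.242 to 0.663 over 45 pairs (different litters -0.561 to 0.319). Replicates were separate pools of explants from separate litters, and none looked like a repeat of another. The alternatives tried were litter and culture blocks, DESeq2 1.42.0 as scaling and as test, no filter, the compared groups alone, litter 3 left out and each library left out. A fit with a mean per fraction and litter plus the vector, with 10 residual degrees of freedom, was added after the data had been seen. The procedure was also run on simulated counts drawn without a litter effect, so that run cannot show how it handles the litters of these data.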

Additional observations from a re-analysis of the deposited data

Results flagged for a closer look

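The fraction contrast of Gli1 differed between litters. The contrast of litter 3 minus that of litters 1 and 2 was -0.671 on the log2 scale, with an edgeR adjusted p of 0.0402 in a fit chosen after the data had been seen. That p measures the spread between cultures of a litter and not between litters. The negative libraries of litter 3 held 31.9 to 33.9 CPM of Gli1, against 17.5 to 23.4 CPM in those of litters 1 and 2. Leaving out single libraries ended the call in 13 of 18 fits, and with DESeq2 size factors the adjusted p was 0.0512. Litter 3 also had a lower median depth and mostly higher mitochondrial shares, with ranges that overlapped those of the other litters. Their part in this was not tested.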

How the results depend on the processing

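For the average over vectors, Boc, Gli2, Hhip and Gli1 kept their direction and call in all 18 fits that left out a library (highest adjusted p 0.0432, for Gli1), and 4 or 5 members were called, with 4951 to 6037 genes. The call of Smo was gained with the litter replicate block (adjusted p = 0.00851), the culture replicate block (0.0209) and DESeq2 (0.0281). Within litter 3, 2 members and 2852 genes were called. Gas1 turned to 0.0531 within litter 3. Gli3, near 0 throughout, turned to 0.0046 with the litter replicate block, 0.0030 with the culture replicate block, 0.0293 without litter 3, and 0.0212 and 0.0547 within litters 1 and 2, and ranged from -0.0245 to 0.0329 with single libraries left out.

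With scramble-shRNA, 4 members were called with the litter replicate block, the culture replicate block and without litter 3. The blocks called 3848 and 3466 genes, and leaving out single libraries gave 1182 to 2177 genes, with 1184 and 1182 without the positive or the negative library of litter 2. With Mylk-shRNA the blocks called 4019 and 3674 genes, and the 6 compared libraries alone 1303. Leaving out single libraries gave 1 to 4 members and 1416 to 2438 genes, with the lowest of both without the positive library of litter 1. With Rock1/2-shRNA the litter and culture blocks called 2 members each and 3369 and 3026 genes, 3 members were called without litter 3, and single libraries left out gave 1167 to 1560 genes, with 1167 and 1228 without the positive or the negative library of litter 2. For the average over vectors, leaving out litter 3 raised the calls over all genes to 6334, from 5558. The shares of all genes within single vectors in that fit are not given here. The member counts without litter 3 are therefore not read as a gain of these genes. The causes were not tested, except that the smaller fits hold fewer samples.

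The vector comparisons and the differences of fraction contrasts called 0 members and 0 genes under each alternative run. Low counts limit Shh and Hhip. Apart from fits without a single library, the gene-level alternatives left 179 results with the same call, 18 newly past the threshold, 4 no longer past it and 6 with the opposite sign. Leaving out single libraries ended the Mylk-shRNA call of Hhip in 2 fits and of Gli2 in 3, and that of the Gli1 litter contrast in 13. It gained a call for Smo in 2 fits and for Gli1 with Mylk-shRNA in 1, and turned the sign of Gli3 in 7.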
